A study of Arabidopsis thaliana with 6 samples.

Results

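The beta-tubulins measured here are the loci whose symbol is TUB followed by a number and that have a probe set paired with no other locus on the array. The gene table lists 9 such loci in Arabidopsis thaliana, and 5 of them met the rule: TUB1 (AT1G75780, probe set 262978_at), TUB5 (AT1G20010, 261230_at), TUB6 (AT5G12250, 250317_at), TUB7 (AT2G29550, 266295_at) and TUB9 (AT4G20890, 254446_at). They are 5 of 13286 loci with such a probe set, and each has 1 probe set. The other 4 loci, TUB2, TUB3, TUB4 and TUB8, have no such probe set in the annotation and were not analysed here. The rule itself uses names and annotation only, but the family was picked for description with earlier results of these data known.

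Affymetrix ATH1 arrays measured RNA from whole seedlings of 2 genotypes, the wild type Col-0 and rns2-2, a mutant in the same Col-0 background. The mutant is named for RNS2, a vacuolar ribonuclease of the RNase T2 family that degrades ribosomal RNA. All plants were 10 days old and had grown on MS-agar under long days, and no treatment was applied to either genotype. Each genotype had 3 arrays, which the labels call independent biological samples, and RNA came from ground seedling tissue. With so few arrays, precision is limited. The labels do not describe the rns2-2 allele, no probe set is paired with RNS2 in the annotation used, and the level of RNS2 was not analysed here.

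Beta-tubulin pairs with alpha-tubulin to form the heterodimer from which microtubules are built. In plant cells, cortical microtubules guide the deposition of cellulose and so the direction in which a cell expands, and in dividing cells microtubules form the spindle and the phragmoplast, the structure that lays down the new cell wall. Plants carry families of near-identical beta-tubulin proteins whose genes are active in different organs. In Arabidopsis, TUB1 has been described mainly in roots and is repressed by light in the stem of the seedling, TUB9 has been described in pollen, and TUB6 is widely active and serves as a reference gene in many expression studies.

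No beta-tubulin passed the test across all probe sets, but TUB1 and TUB7 lay higher on every rns2-2 array than on any Col-0 array. TUB1 was 2.01-fold higher on average and TUB7 1.49-fold. TUB6, TUB5 and TUB9 overlapped between the genotypes, with average differences of 1.21-fold, 1.12-fold and 1.15-fold. TUB5 and TUB9 varied strongly between arrays of 1 genotype. Signals are log2 values per probe set, and since probe sets differ in how strongly they bind, the levels of different genes are not set against each other. The measure reflects the share of RNA in a whole seedling, so fewer cells of a type and less RNA per cell cannot be told apart.

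**Figure D1:**
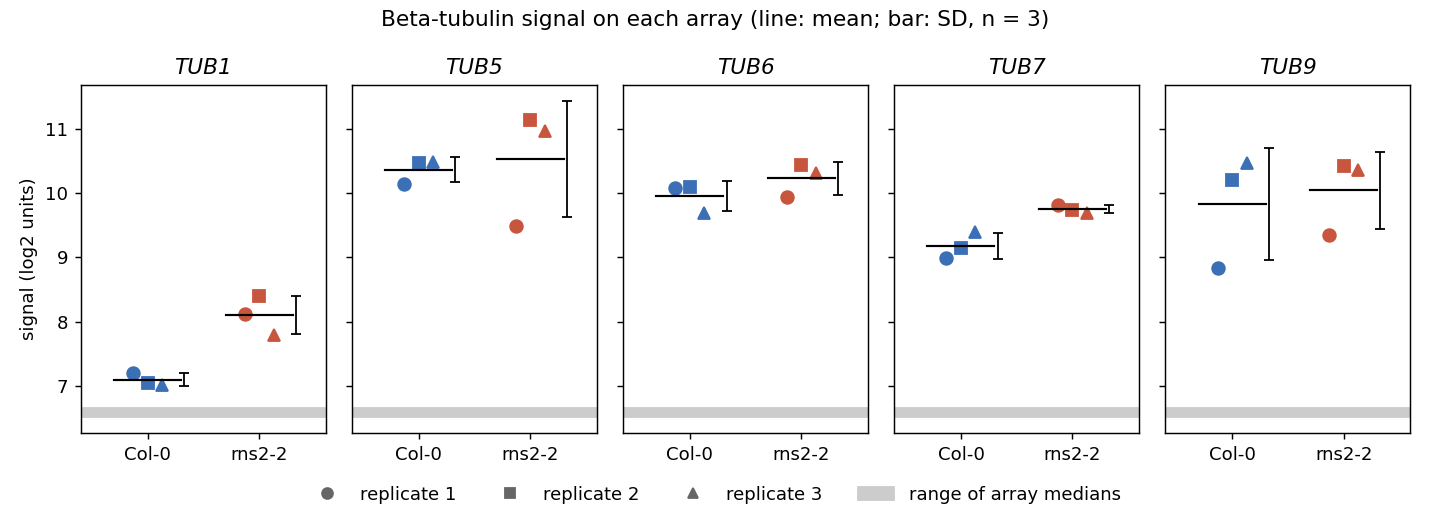
Signal in log2 units (vertical axis) of the 5 beta-tubulins on the 3 Col-0 and the 3 rns2-2 arrays; symbols mark the replicate number, lines the mean, bars the SD, and the grey band the range of the array medians, 6.51 to 6.66. TUB1 and TUB7 show no overlap between the genotypes, while replicate 1 is the lowest point of both genotypes for TUB5 and TUB9; heights in different panels come from different probe sets and are not comparable.

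TUB1 had log2 signals of 7.21, 7.05 and 7.02 in Col-0 replicates 1, 2 and 3. In rns2-2 its log2 signals were 8.12, 8.40 and 7.79. The lowest rns2-2 array, replicate 3, lay 0.58 log2 units above the highest Col-0 array, replicate 1, so the groups did not overlap. The Col-0 arrays were tightly grouped, at a mean of 7.09 ± 0.10 (SD, n = 3), not far above the array medians of 6.51 to 6.66, whereas the rns2-2 arrays stood at 8.10 ± 0.30 (SD, n = 3). The log2 change, rns2-2 minus Col-0, was 1.01 (SE 0.17), and the 95% interval of the fold ran from 1.51 to 2.69. This was larger than the spread between arrays, with an unadjusted limma p of 0.000966, but the limma p adjusted over all 22746 probe sets was 0.277. TUB1 lay at the 99.3rd percentile of log2 changes among all probe sets, and its p was the 77th smallest.

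TUB7 showed a smaller difference, with even values across the rns2-2 arrays but a span of 0.41 log2 units across the Col-0 arrays. On Col-0 replicates 1, 2 and 3 its log2 signals were 8.99, 9.15 and 9.39. On the rns2-2 replicates, in the same order, they were 9.82, 9.74 and 9.70. The rns2-2 arrays lay within 0.12 log2 units of each other, and the lowest of them stood 0.30 above the highest Col-0 array. The means were 9.17 ± 0.21 in Col-0 and 9.75 ± 0.06 in rns2-2 (SD, n = 3). The log2 change was 0.58 (SE 0.13), with a 95% interval of the fold from 1.19 to 1.86, an unadjusted limma p of 0.00441 and a limma adjusted p of 0.311. TUB7 is the member that shares chromosome 2 with RNS2, and 1098 protein-coding loci lie between them in the TAIR10.1 gene table.

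TUB6 had a small difference that was not separated from the spread between arrays. The Col-0 arrays gave log2 signals of 10.07, 10.10 and 9.69. The rns2-2 arrays gave 9.94, 10.44 and 10.31. The groups overlapped because rns2-2 replicate 1 lay below Col-0 replicates 1 and 2, while rns2-2 replicates 2 and 3 lay above all Col-0 arrays. The log2 change was 0.27 (SE 0.18; limma adjusted p = 0.599), and the 95% interval of the fold ran from 0.890 to 1.64.

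TUB5 was uneven within rns2-2. Log2 signals on Col-0 replicates 1, 2 and 3 were 10.14, 10.47 and 10.49. For rns2-2 they were 9.49, 11.13 and 10.97. Replicates 2 and 3 of rns2-2 were the highest of the 6 arrays and replicate 1 of rns2-2 was the lowest, so the genotypes overlapped although the Col-0 arrays spanned only 0.35 log2 units. The log2 change was 0.16 (SE 0.44; limma adjusted p = 0.896), and the 95% interval of the fold, from 0.533 to 2.35, leaves room for a difference as large as that of TUB1.

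TUB9 was low on replicate 1 of both genotypes. Col-0 replicates 1, 2 and 3 had log2 signals of 8.84, 10.20 and 10.46. The matching values for rns2-2 were 9.35, 10.42 and 10.36. The other arrays of the 2 genotypes lay within the same narrow range, from 10.20 to 10.46. The log2 change was 0.21 (SE 0.50; limma adjusted p = 0.884), with a 95% interval of the fold from 0.496 to 2.68. The signal of TUB9 lay well above the array medians on every array of these seedlings. Of the 7 pollen markers considered, TUA1 was the 1 with a probe set of its own in the annotation used. Its log2 signal was 8.17 ± 0.04 for Col-0 against 7.97 ± 0.62 for rns2-2 (SD, n = 3).

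Read against the whole array, 0 of the 5 members passed the adjusted limma threshold of 0.05, where 0.0044% of all probe sets passed, a single one. With an unadjusted limma p under 0.05 there were 2 of 5, both higher in rns2-2, beside 5.35% of all probe sets in that direction. The groups did not overlap for 2 of 5, again both higher in rns2-2, beside 7.23% of all probe sets in that direction and 18.5% in either. All 5 means were higher in rns2-2, beside 42.8% of all probe sets. The median log2 change was 0.27 over the members and -0.04 over all probe sets. These counts rest on the same 6 arrays, so the members are not independent of each other.

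The genes also differed in how steady they were. The residual SD of the fit was 0.15 log2 units for TUB7, 0.23 for TUB1 and 0.24 for TUB6, beside a median of 0.20 over all probe sets. It was 0.66 for TUB5 and 0.75 for TUB9, at the 94.0th and 95.7th percentiles of all probe sets. The widest gaps of TUB5 and TUB9 were at replicate 1, which stood apart in both genotypes across the whole array. Over all probe sets, replicates 2 and 3 differed with an SD of 0.20 log2 units for Col-0 and 0.31 for rns2-2. Replicate 1 differed from either of them with an SD of 0.58 for Col-0 and of 0.59 to 0.61 for rns2-2. Neither replicate 1 grouped with its own genotype. Col-0 replicate 1 was nearer to every rns2-2 array, with an SD of 0.51 to 0.56. Likewise, rns2-2 replicate 1 was nearer to every Col-0 array, with an SD of 0.54 to 0.58.

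TUB9 lay below the mean of replicates 2 and 3 by 1.49 log2 units in Col-0 replicate 1 (value -1.49) and by 1.04 in rns2-2 replicate 1 (value -1.04). A fall of 1 log2 unit or more in replicate 1 of both genotypes was found at 169 probe sets, or 0.743% of those tested. Taken in each genotype by itself, such a fall was found at 3.9% of probe sets in Col-0 and at 3.06% in rns2-2. For TUB5 the difference of replicate 1 from the mean of replicates 2 and 3 was -0.34 in Col-0 and -1.56 in rns2-2. TUB1, at 0.17 and 0.03, TUB7, at -0.28 and 0.10, and TUB6, at 0.18 and -0.43, stayed nearer to 0 in both genotypes. Between replicates 2 and 3, however, TUB1 differed by 0.60 in rns2-2, at the 94.5th percentile of size. TUB6 differed by 0.41 between them in Col-0, at the 92.8th percentile.

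**Figure D2:**
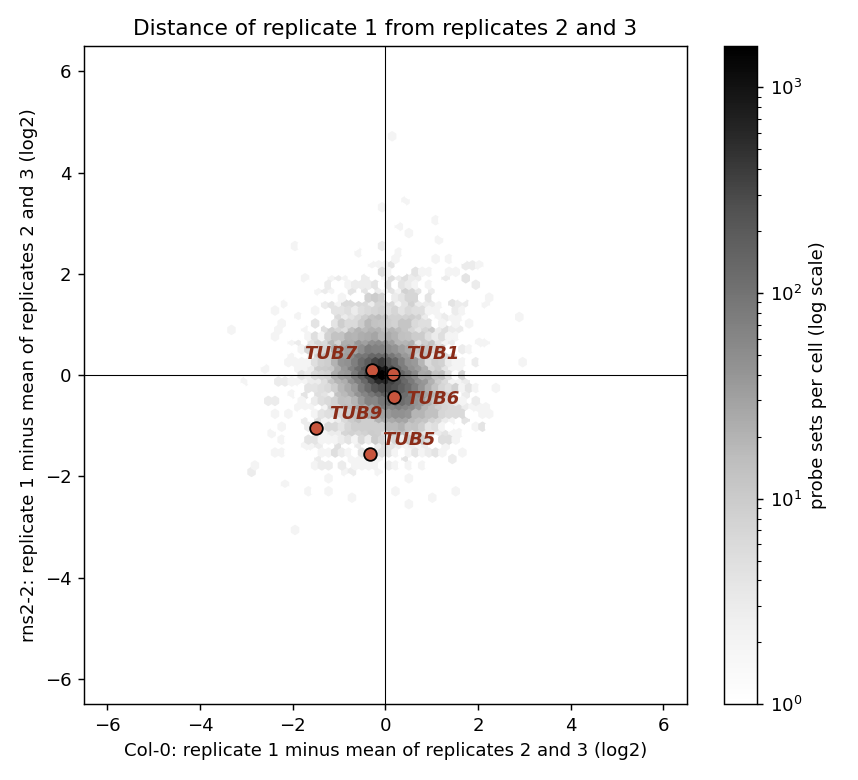
Log2 signal of replicate 1 minus the mean of replicates 2 and 3, in Col-0 (horizontal axis) and in rns2-2 (vertical axis), for all 22746 probe sets (grey, log count per cell) and for the 5 beta-tubulins (red). TUB9 lies low on both axes, TUB5 mainly on the rns2-2 axis, and TUB1, TUB6 and TUB7 near the centre.

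Signs of RNA quality were compared with these values. Control transcripts of actin, GAPDH and ubiquitin are read at both ends, and the excess of the 3' over the 5' signal grows as RNA is degraded or incompletely copied. On Col-0 replicates 1, 2 and 3 this excess was 2.43, 1.19 and 1.53 log2 units, and on those of rns2-2 it was 0.79, 1.17 and 1.65. TUB9 was lowest on Col-0 replicate 1, where the excess was 2.43, and next lowest on rns2-2 replicate 1, where it was 0.79. Controls for labelling had mean log2 signals of 5.99, 5.53 and 5.48 on the Col-0 arrays. On the rns2-2 arrays they had 5.67, 6.28 and 6.47. The ranges of the 2 genotypes overlapped only because of the replicate 1 arrays. On replicates 2 and 3, used alone in a fit below, both rns2-2 arrays lay above both Col-0 arrays. The part of these array properties in the tubulin values was not tested.

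Replicate 1 was set aside in one comparison. With replicates 2 and 3 only, TUB1 rose in rns2-2 by 1.06 log2 units (SE 0.20; limma adjusted p = 0.0115) and TUB5 by 0.57 (SE 0.14; limma adjusted p = 0.0300). TUB6, at 0.48 (SE 0.17; limma adjusted p = 0.109), and TUB7, at 0.45 (SE 0.15; limma adjusted p = 0.0842), did not pass, and TUB9 stood at 0.06 (SE 0.15; limma adjusted p = 0.834). In this comparison 14.3% of all probe sets passed, 7.3% being higher in rns2-2, so 2 of 5 members is to be read against that share. These calls treat replicates 2 and 3 as independent samples, as the labels call them, and whether these close arrays shared material was not tested. When the mean of replicates 2 and 3 counted as 1 sample, beside replicate 1, TUB1 kept a log2 change of 0.99 (SE 0.13) without passing (limma adjusted p = 0.935), and TUB5 stood at -0.041 (SE 0.60; limma adjusted p = 0.995). With all arrays kept but weighted by their agreement, TUB1 passed, at 1.06 (SE 0.17; limma adjusted p = 0.0452). TUB7 stood at 0.55 (SE 0.10; limma adjusted p = 0.0547), and 1.91% of all probe sets passed. Replicate 1 had a weight of 0.38 in Col-0 and 0.46 in rns2-2, and the other arrays had weights from 0.88 to 2.58. This fit thus leans on replicates 2 and 3, and the limit on their independence holds here too.

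Leaving out 1 array decided the value of TUB5 and TUB9. Without rns2-2 replicate 1, the log2 change of TUB5 was 0.68 (SE 0.16; limma adjusted p = 0.180), while without rns2-2 replicate 2 or 3 it was -0.14 or -0.06. TUB9 stood at -0.29 (SE 0.36; limma adjusted p = 0.696) without Col-0 replicate 1 and at 0.55 (SE 0.49; limma adjusted p = 0.649) without rns2-2 replicate 1. TUB1 kept a log2 change between 0.86 and 1.17 whichever array was left out, and TUB7 one between 0.48 and 0.69. In these fits the limma adjusted p of TUB1 ran from 0.0786 to 0.733, and that of TUB7 from 0.154 to 0.733. The share of all probe sets that passed was 1.46% without Col-0 replicate 1, 0.141% without rns2-2 replicate 1 and 0.0044% without any other single array.

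**Figure D3:**
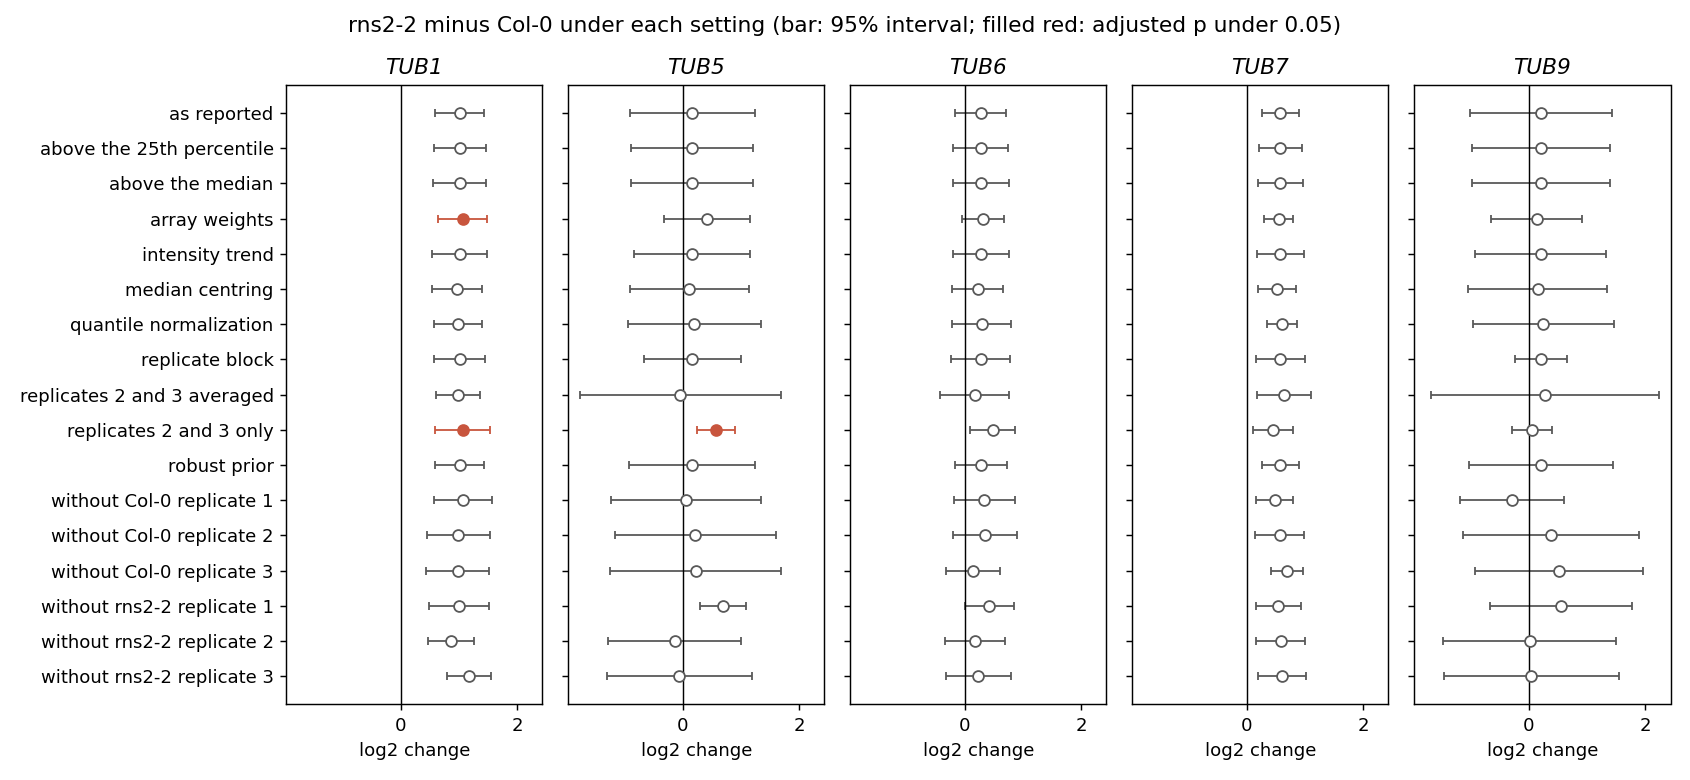
Log2 change, rns2-2 minus Col-0 (horizontal axis), with its 95% interval for each beta-tubulin as reported and under each alternative setting (rows); filled red points had a limma adjusted p under 0.05. TUB1 lies right of 0 in every row, between 0.86 and 1.17, whereas TUB5 and TUB9 cross 0 when single arrays are left out. Rows that change only the error or the p repeat the reported log2 change.

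The partners of beta-tubulin were thinly covered by the annotation used. Of the 6 alpha-tubulin genes, TUA1 and TUA6 had a probe set of their own, and TUA3 and TUA5 share one that was not used. TUA6, an alpha-tubulin of vegetative tissue, had log2 signals of 10.57, 11.29 and 11.28 on Col-0 replicates 1, 2 and 3. On those of rns2-2 it had 11.31, 11.60 and 11.69. All rns2-2 arrays lay above all Col-0 arrays, though rns2-2 replicate 1 exceeded Col-0 replicate 2 only narrowly, by 0.03 log2 units. Such non-overlap, higher in rns2-2, was found at 7.23% of all probe sets, and in either direction at 18.5%. The log2 change was 0.49 (SE 0.23; limma adjusted p = 0.502). TUA1, an alpha-tubulin known from pollen, had a log2 change of -0.20 (SE 0.30; limma adjusted p = 0.809).

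Among genes that fold tubulin or act on microtubules, 5 were measured and 0 passed with limma, also without adjustment. POR and PFI, cofactors C and E of tubulin folding, had log2 changes of -0.04 (SE 0.15) and -0.12 (SE 0.10). PFI was lower on every rns2-2 array than on any Col-0 array, with a gap of 0.02 log2 units. Non-overlap in either direction was found at 18.5% of all probe sets. SPR1, a microtubule-associated protein needed for straight cell expansion, stood at 0.16 (SE 0.18). The kinesins KINESIN-13A and PAKRP1L, a motor of the phragmoplast, stood at 0.27 (SE 0.15) and 0.10 (SE 0.21). The limma adjusted p of the 5 ran from 0.544 to 0.931. The lists of gamma-tubulin and nucleation factors and of cellulose synthases had 0 loci with a probe set of their own in the annotation used. They were not assessed. The actins ACT11 and ACT12, which build the other main filament system, had log2 changes of 0.69 (SE 0.48; limma adjusted p = 0.609) and -0.07 (SE 0.10; limma adjusted p = 0.785), and ACT12 was dim, at a mean of 4.24 in Col-0.

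**Figure D4:**
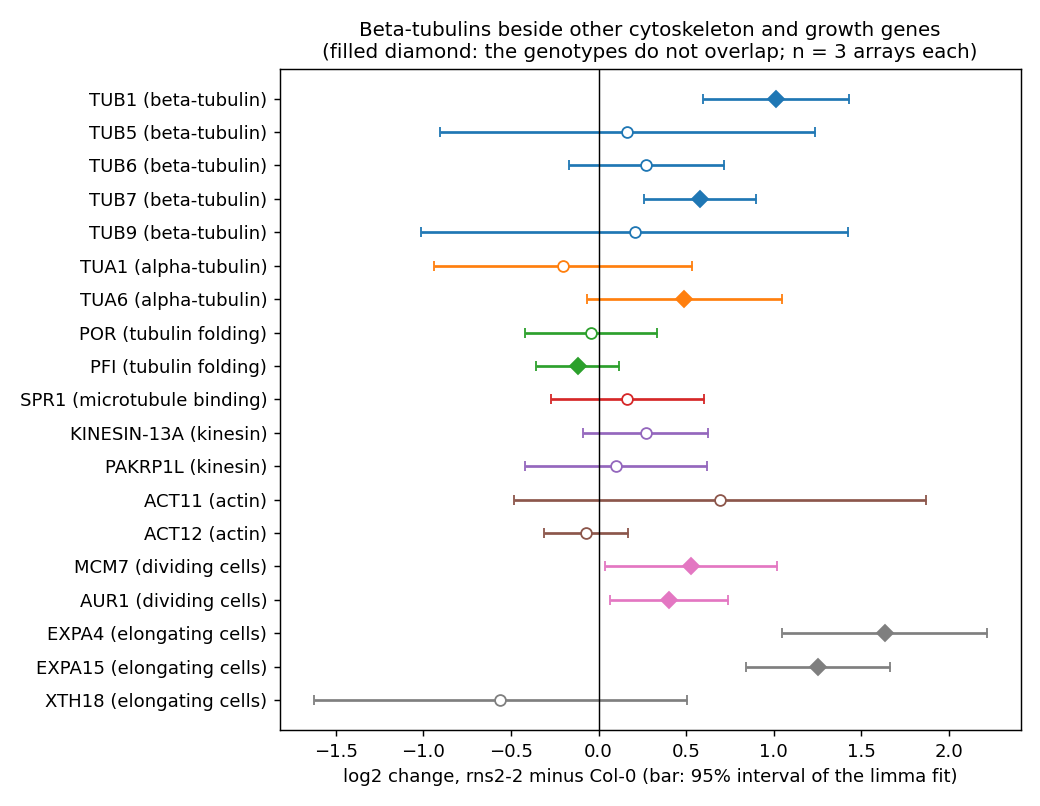
Log2 change, rns2-2 minus Col-0 (horizontal axis), with its 95% interval from the limma fit for the 5 beta-tubulins and for the measured genes of the other cytoskeleton and growth lists (n = 3 arrays each); filled diamonds mark genes whose genotypes do not overlap. TUB1 and TUB7 lie right of 0 with intervals that leave 0 out, as do MCM7, AUR1, EXPA4 and EXPA15.

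Markers of tissue and growth were set beside TUB1 and TUB7. The seedling label was checked with 8 nuclear photosystem genes, whose mean log2 signal ran from 12.49 to 12.84 in Col-0 and from 12.42 to 12.88 in rns2-2, far above the array medians. The 3 measured root markers of 10, PYK10, EXPA7 and EXPA18, had mean log2 signals between 7.87 and 8.37 in Col-0 and between 7.76 and 8.72 in rns2-2, so the ranges overlapped, and EXPA7 and EXPA18 lay below the array medians on average in both genotypes. The 2 measured markers of dividing cells of 13 had means of 7.78 to 7.93 in Col-0 and 8.03 to 8.52 in rns2-2. They were MCM7, a subunit of the replicative helicase, at a log2 change of 0.53 (SE 0.20; limma adjusted p = 0.449), and AUR1, a mitotic kinase, at 0.40 (SE 0.14; limma adjusted p = 0.415). The 3 measured markers of elongating cells of 7 had means of 7.50 to 7.83 in Col-0 and 8.29 to 8.76 in rns2-2. Of these, 2 are expansins, which loosen the wall: EXPA4 stood at 1.63 (SE 0.24; limma adjusted p = 0.275) and EXPA15 at 1.25 (SE 0.17; limma adjusted p = 0.260). The log2 change of XTH18 was -0.56 (SE 0.44; limma adjusted p = 0.642), and its groups overlapped. MCM7, AUR1, EXPA4 and EXPA15 did not overlap between the genotypes, MCM7 by a gap of only 0.03 log2 units. Non-overlap with higher values in rns2-2 was found at 7.23% of all probe sets, and in either direction at 18.5%. The part of these markers in the tubulin values was not tested. The list for secondary wall xylem had 0 loci with a probe set of their own in the annotation used.

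The loci whose pattern over the 6 arrays was most like each beta-tubulin were found by Pearson r among 5967 other loci brighter than the median probe set. This is a description, since 6 points that share arrays give high values easily: between 21 loci, for TUB6, and 148 loci, for TUB5, had r over 0.9. For TUB1 the most similar were AT1G27190 (r = 0.996), AT5G19290 (r = 0.995) and AT3G09100 (r = 0.994), of which AT1G27190 ran from 8.02 to 8.19 in Col-0 and from 8.46 to 8.79 in rns2-2. For TUB7 they were AT5G41190 (r = 0.988), AT1G66430 (r = 0.985) and AT1G36730 (r = 0.984). For TUB6 they were AT2G13690 (r = 0.991), AT3G59000 (r = 0.980) and AT4G00560 (r = 0.976). For TUB5 they were AT5G61520 (r = 0.997), AT1G52420 (r = 0.993) and AT3G56680 (r = 0.993). For TUB9 they were AT1G25390 (r = 0.995), AT3G62810 (r = 0.993) and AT1G48210 (r = 0.990). No beta-tubulin was among the 3 loci closest to another.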

How the data were processed

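The authors deposited 1 log2 signal per probe set and array, on a scale inferred from the values, which ran from 3.21 to 14.49. Per the submitters' processing notes, they came from Affymetrix Expression Console. How signals were summarised or normalized between arrays is not given in the sources used here. Array medians lay between 6.51 and 6.66. The 64 control probe sets were left out, which left 22746. A platform annotation, updated through RefSeq gene identifiers (TAIR10.1), paired 13436 probe sets with 1 locus each. It did not list 8730 of the 22746, so a gene not measured here may still have a probe set on the array. Genes called measured are those that this annotation pairs with a probe set of their own. The genotypes were compared with limma 3.58.1 in R 4.3.3, two-sided, with Benjamini-Hochberg adjustment over all 22746 probe sets and a threshold of 0.05. No replicate block was used. Standard errors and 95% intervals are those of this fit, and SD is over 3 arrays. The step was tested on simulated data with independent errors of equal spread on every array. That setting differs from these arrays, where replicate 1 stood apart, so the simulation cannot speak to that structure. Lists used the brightest probe set of a locus. The rule named all members, up to 4 genes of each list by unadjusted p, and the 3 loci most like each member. Members and lists were chosen with earlier results of these data known. The photosystem genes were added later, by symbol, since no chosen green tissue marker had a probe set of its own in this annotation. Cross-binding between near-identical beta-tubulins was not tested.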

Additional observations from a re-analysis of the deposited data

How the results depend on the processing

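The number of changed probe sets, 1 as reported, was 435 with array weights, 3262 with replicates 2 and 3 only, 0 with these averaged (895 at an unadjusted limma p under 0.05), 2425 at an unadjusted p under 0.05, and 1 to 333 without single arrays, the highest without Col-0 replicate 1, with 32 without rns2-2 replicate 1. The number of called beta-tubulins, 0 as reported, was 1 with array weights (TUB1, 1.06), 2 with replicates 2 and 3 only (TUB1, 1.06, and TUB5, 0.57) and 2 at an unadjusted p under 0.05 (TUB1 and TUB7). Without single arrays it was 0, and the log2 changes ran from 0.86 to 1.17 for TUB1, from -0.14 to 0.68 for TUB5, from 0.14 to 0.42 for TUB6, from 0.48 to 0.69 for TUB7 and from -0.29 to 0.55 for TUB9. TUB5 was also below 0 with replicates 2 and 3 averaged (-0.041). TUB1, TUB6 and TUB7 stayed above 0 in all 17 alternatives. Several of these change only the error or the p and repeat the log2 change as reported, so its sign could not move. They are the filters on dim probe sets, the intensity trend, the robust prior, the replicate block and the exact permutation test. Whether same-numbered arrays pair was not settled. Their deviations correlated at 0.06, -0.06 and 0.14 across probe sets, and those of differently numbered arrays at -0.13 to 0.09. Deviations cancel out within a genotype, so these values cannot decide it. With the replicate block, 1 probe set and 0 beta-tubulins passed, and TUB1 kept 1.01 (limma adjusted p = 0.488). The SE of TUB9 was 0.16 with the block, beside 0.50 as reported (limma adjusted p = 0.693 with the block). The exact permutation test gave 0.1 for TUB1 and TUB7, the smallest 3 arrays against 3 allow. The median of the 2 alpha-tubulins was 0.14, and -0.083 with replicates 2 and 3 only, and that of the actins was 0.31, and 0.69 with either filter on dim probe sets, which removed ACT12. Apart from fewer samples or probe sets, the cause was not tested. Each member has 1 probe set in the annotation used, so no further probe set could be tried. No detection calls were used, so dim values could not be set against background.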
